A study of Mus musculus with 16 samples.

Results

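Mitochondria carry ribosomes of their own, and this report describes the transcripts of the proteins that build them, in leukemic cells and in the remaining marrow cells of mice with and without host IL-6. The genes were taken by name: every gene whose symbol starts with Mrpl or Mrps and a number was included, and names of pseudogenes ending in -ps were left out. The rule found 78 genes among the 15080 listed for leukemic cells (tumor) and 77 among the 13344 listed for the other marrow cells (stroma), with Mrpl54 listed for tumor only. They comprise 49 Mrpl and 29 Mrps genes. By role, 51 of the 78 products belong to the large subunit, 26 to the small subunit and 1, Mrps36, is now known as a part of the 2-oxoglutarate dehydrogenase complex rather than of the ribosome.

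The mitochondrial ribosome translates the few proteins encoded in mitochondrial DNA, which are subunits of the respiratory chain and of the ATP synthase. Its RNAs come from mitochondrial DNA, whereas its proteins are encoded in the nucleus, made in the cytosol and imported. Some of these proteins descend from bacterial ribosomal proteins, and others were added in the mitochondrial lineage. Leukemic cells are often studied for their dependence on mitochondrial translation.

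The leukemic cells were 1 transplantable line of mouse BCR-ABL+ Arf-/- B-cell acute lymphoblastic leukemia (B-ALL), which carries mCherry and luciferase and keeps its own Il6 gene. Each recipient, a C57BL/6J mouse of 6 to 8 weeks with a normal Il6 gene (WT) or without it in all host cells (IL-6 KO), received 500000 of these cells through the tail vein and no treatment. On day 8, mCherry+ cells (tumor) and mCherry- cells (stroma) were sorted from the marrow, giving 4 libraries in each of 4 groups named WT tumor, IL-6 KO tumor, WT stroma and IL-6 KO stroma. The comparison asked how the absence of IL-6 from the host moved with the transcripts of either population. The labels number the libraries within a group but do not say that each came from a separate mouse, so the p-values measure the spread between these libraries.

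Both populations were checked against marker genes. All 11 B-lineage markers were listed in tumor, with summed normalized counts of 149037 to 153408 in WT and 158264 to 167268 in IL-6 KO libraries. In stroma 10 of 11 erythroid markers were listed, with sums of 87646 to 405412. Of the 6 mesenchymal markers 3 were listed there (Col1a1, Kitl and Pdgfrb), with sums of 137 to 447 in WT and 95.8 to 1565 in IL-6 KO libraries, and Cxcl12, Lepr and Pdgfra were not. Of the 5 endothelial markers 2 were listed (Pecam1 and Kdr, 83.8 to 135 in WT and 29.97 to 152 in IL-6 KO), and Cdh5 was not. IL-6 KO stroma library 4 stood apart, since 1 RNA, CT010467.1, held 61.5% of its total, against at most 0.039% in any other library. In the other 7 stroma libraries the signal recognition particle RNA Rn7s1 held 19.2 to 50.1% of the WT totals and 71.5 to 79.0% of the IL-6 KO totals.

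The genes were far more precisely measured in tumor than in stroma. The values are normalized counts, which are estimated reads per gene after each library was scaled to the others of its table. The mean of a gene in WT tumor lay between 481 and 3678, with a median of 1328, and in WT stroma between 5.26 and 147, with a median of 29.6. The SD of the 4 libraries was 8.90% of the mean for the median gene in WT tumor and 56.0% in WT stroma. No gene was at 0 in any tumor library, whereas 25 of the 77 were at 0 in at least 1 stroma library. The paper gives only an approximate depth per sample. The number of reads behind each value is unknown, so neither intervals nor limits from counting were given.

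To show the control regions behind genes named below, a stretch of 100 bases before to 20 bases after the transcription start is printed for 5 of the genes whose transcripts differed between the genotypes in tumor, 3 that were higher in IL-6 KO mice (Mrpl9, Mrps9 and Mrpl17) and 2 that were lower (Mrpl33 and Mrps12). The sequences are from RefSeq on GRCm38.p6, read along the strand of the gene, and capitals mark matches to the NRF1 and ETS motifs described below.
Mrpl9: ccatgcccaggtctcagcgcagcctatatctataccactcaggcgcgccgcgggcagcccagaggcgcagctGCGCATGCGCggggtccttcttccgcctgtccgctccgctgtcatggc
Mrps9: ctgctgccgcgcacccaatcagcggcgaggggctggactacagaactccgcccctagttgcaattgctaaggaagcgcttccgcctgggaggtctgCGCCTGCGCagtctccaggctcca
Mrpl17: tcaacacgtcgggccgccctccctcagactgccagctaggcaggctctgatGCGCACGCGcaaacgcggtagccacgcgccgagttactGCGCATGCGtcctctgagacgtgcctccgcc
Mrpl33: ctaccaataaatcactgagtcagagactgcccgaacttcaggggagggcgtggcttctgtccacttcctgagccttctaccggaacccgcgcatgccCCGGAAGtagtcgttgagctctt
Mrps12: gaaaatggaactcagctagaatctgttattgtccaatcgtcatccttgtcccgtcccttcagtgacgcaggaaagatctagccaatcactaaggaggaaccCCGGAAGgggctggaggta

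These stretches lie at chr3:94443236-94443355 (plus strand) for Mrpl9, chr1:42851133-42851252 (plus) for Mrps9, chr7:105811068-105811187 (minus) for Mrpl17, chr5:31613851-31613970 (plus) for Mrpl33 and chr7:28741802-28741921 (minus) for Mrps12. Of the 78 genes, 69 had a promoter window of 300 bases in the RefSeq table, 66 of them with a single window. The windows were searched on both strands for the core of the motif of NRF1 (GCGCANGCG), a motif of ETS factors such as GABP (CCGGAAG), a YY1 motif (AANATGGCG) and the E-box (CACGTG). NRF1, GABP and YY1 are known regulators of nuclear genes for mitochondrial proteins, and MYC is among the factors that bind E-boxes.

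The NRF1 letters were in 16 of the 75 windows of these genes (21.3%), against 6.25% of all 32851 windows in the table. The ETS letters were in 26 windows (34.7%, against 8.86%) and the YY1 letters in 11 (14.7%, against 2.38%). The E-box was in 7 windows (9.33%, against 7.15%), which is close to its share overall. Counted by gene, 5 of the 14 genes that were higher in IL-6 KO tumor and had a window held the NRF1 letters, as did 0 of the 5 that were lower. The ETS letters were in 4 of those 14 and in 3 of those 5. The YY1 letters were in 4 of those 14 and in 1 of those 5, and the E-box in 2 and 1. The 5 printed genes were picked after their matches were seen, as examples that hold NRF1 letters (Mrpl9, Mrps9 and Mrpl17) or ETS letters (Mrpl33 and Mrps12). The window of Mrpl17 held the ETS letters as well, 237 bases before the start and outside the printed stretch. The division among the 5 by direction is not that of all called genes, since most higher genes lacked the NRF1 letters and some held the ETS letters. Among the 69 genes with a window, 16 held NRF1 and 26 ETS letters. A TATA box (TATAAA), the letters of the CAAT box (CCAAT) and a GC box (GGGCGG) were searched as well and were in 6.67%, 40.0% and 52.0% of the windows of these genes, against 13.6%, 37.4% and 35.7% of all. The matches describe letters in these windows only, and binding was not measured.

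In leukemic cells, 21 of the 78 genes differed between the genotypes at an adjusted p under 0.05. In IL-6 KO mice 16 of these stood higher than in WT mice and 5 stood lower. Of the higher genes 13 belong to the large subunit, to which 51 of the 78 genes belong. The changes of the higher genes were small apart from Mrpl23, whose copy is described below. Fewer genes fell, with the largest falls in Mrps18c (-1.17 on the log2 scale), Mrpl33 (-0.81), Mrpl42 (-0.61) and Mrps12 (-0.58), of which Mrps12 alone kept its call with GC and length trends removed. All 78 genes passed the filter on low values, a mean normalized count over 10. Among all 14493 genes tested 19.8% were called, 10.6% as higher and 9.16% as lower, against 26.9% of the 78, 20.5% as higher and 6.41% as lower. The median log2 fold change (IL-6 KO minus WT) of the 78 genes was 0.036, against -0.0059 over all genes, and 45 of the 78 lay above 0.

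The count of calls moved with the processing and with single libraries. It was 13 (11 higher, 2 lower) once the trends of each library with GC content and transcript length were removed, of which 8 were among the 21 (Mrpl9, Mrpl17, Mrpl23, Mrpl27, Mrpl57, Mrps9, Mrps12 and Mrps30). The other 5 were not called otherwise, namely Mrps33, Mrpl50 (0.46), Mrpl51 (0.32) and Mrps36 as higher and Mrpl34 (-0.50) as lower. It was 16 (10 higher, 6 lower) after quantile normalization. As single libraries were left out the count ran from 8 to 24. It was 8 without WT tumor library 3 and 10 without IL-6 KO tumor library 1 or 4. Without WT tumor library 2 it was 11, and without WT tumor library 4 it was 13. Calls over all genes tested moved as well, from 2870 with all libraries to between 1572 and 3328 as single libraries were left out. What the trends stem from was not tested. Across the 78 genes the rank correlation of the fold change with GC content was 0.29, and it was 0.40 across all genes, where all genes share the same libraries. Mrpl9 and Mrps12 were the only genes called under each of the 18 alternatives, and 7 genes stayed called whichever library was left out (Mrpl9, Mrps12, Mrpl23, Mrpl33, Mrpl42, Mrps9 and Mrps18c).

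**Figure D1:**
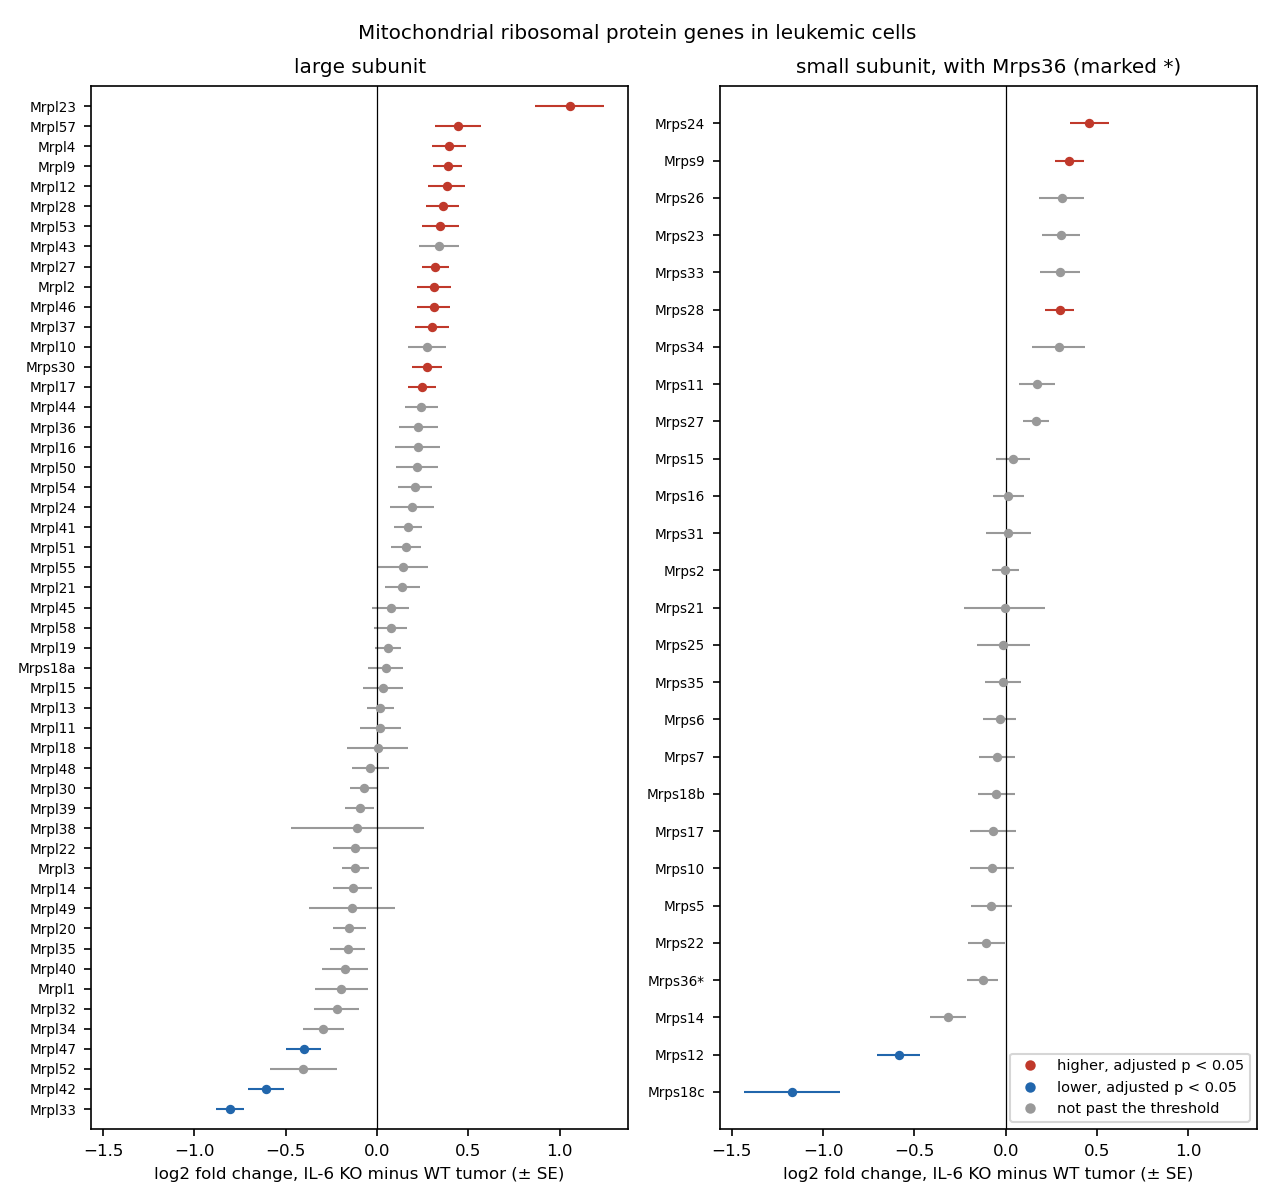
Log2 fold change (IL-6 KO minus WT tumor, x axis) of each of the 78 genes, sorted by value within the large subunit (left) and the small subunit with Mrps36 (right). Points are estimates from 4 libraries per genotype, bars are SEs and colours mark the 16 genes that were higher, the 5 that were lower and the 57 that did not pass the threshold. Most genes lie within 0.5 of 0, and Mrpl23 and Mrps18c lie farthest out.

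Among genes of the large subunit, Mrpl9 (chromosome 3, 94443318 to 94451130, plus strand) encodes the counterpart of the bacterial protein L9. Its normalized counts were 2180, 1752, 1861 and 1942 in the 4 WT tumor libraries and 2553, 2402, 2572 and 2568 in the 4 IL-6 KO tumor libraries. Every IL-6 KO library lay above every WT library, and the log2 fold change was 0.39 ± 0.080 (SE, adjusted p = 0.011). Mrpl9 shares exon sequence on the other strand with Oaz3, a gene that neither table lists.

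Mrpl12, a protein of the L7/L12 stalk that recruits translation factors to the ribosome, had 4075, 3120, 3589 and 3928 in WT and 5364, 4232, 4885 and 4673 in IL-6 KO tumor. The libraries did not overlap, and the log2 fold change was 0.38 ± 0.10 (SE, adjusted p = 0.028), or 0.17 (adjusted p = 0.26) with the GC and length trends removed. Since the stalk holds only 5 genes, all are given. The other 4 had positive fold changes as well, of which Mrpl53 (0.35, adjusted p = 0.041) passed the threshold and Mrpl10 (0.28), Mrpl54 (0.21) and Mrpl11 (0.018) did not. Mrpl53 shares 695 identical bases with the overlapping gene Gm42688, and the sum of both was 1046, 793, 848 and 858 in WT and 1053, 1218, 1008 and 997 in IL-6 KO tumor, which overlap (exact permutation test, two-sided, p = 0.086).

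Mrpl4, Mrpl2 and Mrpl28, counterparts of bacterial large subunit proteins, were higher by 0.39 ± 0.093, 0.31 ± 0.092 and 0.36 ± 0.090 on the log2 scale (± SE, adjusted p = 0.018, 0.041 and 0.022). Mrpl4 had 1664, 1284, 1345 and 1510 in WT and 1953, 1801, 1995 and 1840 in IL-6 KO tumor, without overlap. With the GC and length trends removed these fold changes were 0.11, 0.064 and 0.092 and were not called. For Mrpl2, which lies close to the peptidyl transferase centre, IL-6 KO library 2 (2345) stood above the other 3 (1858 to 1924), and all 4 were above WT (1471 to 1704). Mrpl27, which also reaches towards that centre, had 916, 830, 869 and 871 in WT and 1076, 1118, 1033 and 1125 in IL-6 KO tumor (log2 fold change 0.32 ± 0.075 SE, adjusted p = 0.017).

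The other higher genes of the large subunit had log2 fold changes of 0.44 (Mrpl57, adjusted p = 0.034), 0.31 (Mrpl46, adjusted p = 0.040), 0.30 (Mrpl37, adjusted p = 0.047), 0.27 (Mrps30, adjusted p = 0.042) and 0.24 (Mrpl17, adjusted p = 0.0498). Mrpl57, Mrpl46 and Mrpl37 encode proteins that bacterial ribosomes lack, and Mrps30 sits in the large subunit in spite of its name. In Mrpl57 and Mrpl37 the libraries of the genotypes overlapped, with 1313 to 1797 in WT and 1776 to 2286 in IL-6 KO tumor for Mrpl57. Mrpl17, whose counterpart lines the exit tunnel, had 2038, 2083, 1830 and 1965 in WT and 2340, 2579, 2189 and 2278 in IL-6 KO tumor, and its call was lost whichever library was left out. The calls of Mrpl46 and Mrpl37 were each kept in 1 of the 8 fits with a library left out, as was that of Mrpl53, those of Mrps30, Mrpl2 and Mrps28 in 2 and those of Mrpl57 and Mrpl12 in 3. Mrpl37 stood at 0.12 (adjusted p = 0.44) and Mrpl46 at 0.24 (adjusted p = 0.098) with the GC and length trends removed. Of the 78 genes, 26 had libraries that did not overlap between the genotypes (33.3%, against 25.6% of all genes tested), 19 with all IL-6 KO libraries above WT and 7 with all below.

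Mrpl33 fell most clearly of the large subunit genes. Its product is a small protein of the large subunit, and the gene lies on chromosome 5, from 31596935 to 31664384, plus strand. Mrpl33 had 1688, 1882, 1771 and 1747 in WT tumor and 933, 1001, 1097 and 1025 in IL-6 KO tumor. The gap between the genotypes was wider than either group, and the log2 fold change was -0.81 ± 0.078 (SE, adjusted p = 5.5e-04). Mrpl33 shares exon sequence on the same strand with Gm43809, which neither table lists.

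Mrpl42, a protein without a bacterial counterpart, had 1371, 1435, 1394 and 1162 in WT and 817, 997, 833 and 866 in IL-6 KO tumor. The log2 fold change was -0.61 ± 0.099 (SE, adjusted p = 0.0043). Mrpl47, which sits near the exit tunnel, had 711, 818, 752 and 670 in WT and 506, 567, 578 and 579 in IL-6 KO tumor (log2 fold change -0.40 ± 0.096 SE, adjusted p = 0.019). Neither gene had overlapping libraries, and Mrpl47 shares exons on the other strand with Actl6a and Ndufb5. With the GC and length trends removed, none of Mrpl33, Mrpl42 and Mrpl47 was called, with log2 fold changes of -0.17 (adjusted p = 0.26), -0.10 (adjusted p = 0.44) and -0.25 (adjusted p = 0.094).

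Among genes of the small subunit, 3 were higher and 2 lower of the 26. These counts are close to the shares over all genes tested, of which 10.6% were higher and 9.16% lower. Mrps9 (chromosome 1, 42851233 to 42905683, plus strand), a counterpart of bacterial S9, had 1465, 1288, 1473 and 1514 in WT and 1817, 1983, 1752 and 1749 in IL-6 KO tumor (log2 fold change 0.35 ± 0.080 SE, adjusted p = 0.016). Mrps24 had 1553, 1147, 1237 and 1412 in WT and 1916, 1632, 1801 and 1966 in IL-6 KO tumor (0.46 ± 0.11 SE, adjusted p = 0.018). Mrps28 was higher by 0.30 ± 0.079 (SE, adjusted p = 0.028). With the GC and length trends removed, Mrps9 kept its call and Mrps24 (0.30, adjusted p = 0.075) and Mrps28 (0.21, adjusted p = 0.13) did not. In all 3 the IL-6 KO libraries lay above the WT libraries, and Mrps24 shares exons with Urgcp on the same strand.

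Mrps12 (chromosome 7, 28739641 to 28741820, minus strand) encodes a protein of the decoding centre, where codon and anticodon meet. It had 942, 1031, 1049 and 753 in WT tumor and 641, 674, 606 and 578 in IL-6 KO tumor. The groups did not overlap, and the log2 fold change was -0.58 ± 0.12 (SE, adjusted p = 0.0097). With the GC and length trends removed it was -0.79 (adjusted p = 0.0060), so that Mrps12 was 1 of 2 genes called as lower under that setting.

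The 3 genes of the Mrps18 family encode related proteins of which Mrps18a is placed in the large subunit and Mrps18b and Mrps18c in the small subunit. Mrps18c (chromosome 5, 100798627 to 100804471, plus strand) had 1589, 1504, 1213 and 608 in WT and 466, 569, 536 and 483 in IL-6 KO tumor. WT library 4 lay close to the IL-6 KO libraries while the other 3 WT libraries stood clearly above them. The log2 fold change was -1.17 ± 0.26 (SE, adjusted p = 0.015) and ranged from -1.48 to -1.02 as single libraries were left out. It was -0.68 (adjusted p = 0.10) with the GC and length trends removed. Mrps18a (log2 fold change 0.047 ± 0.098 SE) and Mrps18b (-0.051 ± 0.10 SE) did not pass the threshold.

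**Figure D2:**
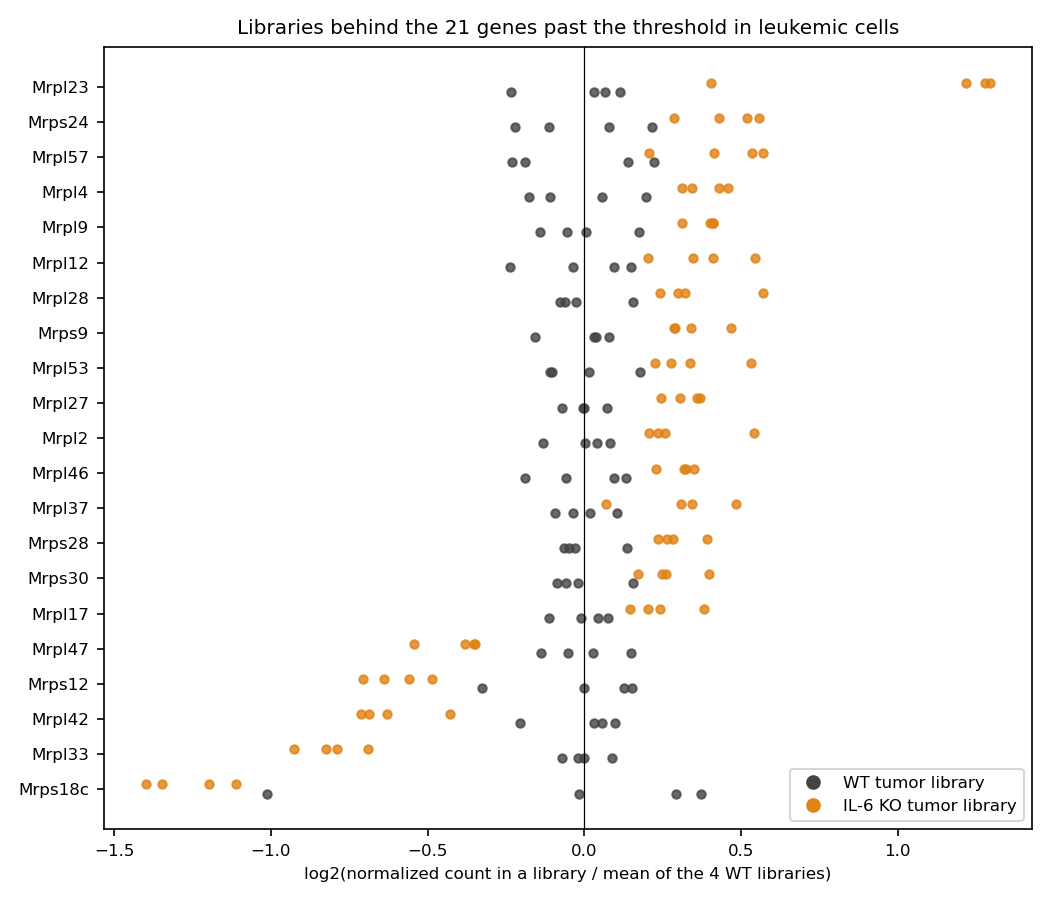
Each tumor library's log2 ratio to the mean of the 4 WT tumor libraries (x axis) for the 21 genes that passed the threshold (y axis, sorted by fold change), with WT libraries in grey and IL-6 KO libraries in orange. The genotypes overlap only in Mrpl57 and Mrpl37, 3 of the IL-6 KO libraries of Mrpl23 stand apart from the fourth, and 1 WT library of Mrps18c lies near the IL-6 KO libraries.

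Mrpl23, a protein at the exit tunnel where chains leave the ribosome, had the largest fold change of the higher genes and also a processed pseudogene, Mrpl23-ps1, whose sequence is identical over 540 bases. Mrpl23 had 1386, 1338, 1306 and 1087 in WT tumor and 2978, 1694, 3136 and 3103 in IL-6 KO tumor (log2 fold change 1.05 ± 0.19 SE, adjusted p = 0.0062). Mrpl23-ps1 had 1830, 1067, 1493 and 1811 in WT tumor. In IL-6 KO tumor it was listed at 0 in libraries 1, 3 and 4 and had 761 in library 2.

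Summed over gene and copy, the counts were 3215, 2405, 2800 and 2898 in WT tumor and 2978, 2456, 3136 and 3103 in IL-6 KO tumor. The sums overlapped, with means of 2830 ± 334 (SD, n = 4) and 2918 ± 316 (SD, n = 4), a log2 difference of 0.045 and p = 0.66 (exact permutation test, two-sided). The smallest p that 4 against 4 libraries allow is 0.029. The higher counts of Mrpl23 came with lower counts of its copy in the same libraries, and reads from identical bases cannot be told apart. This sum was chosen after the values were seen.

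**Figure D3:**
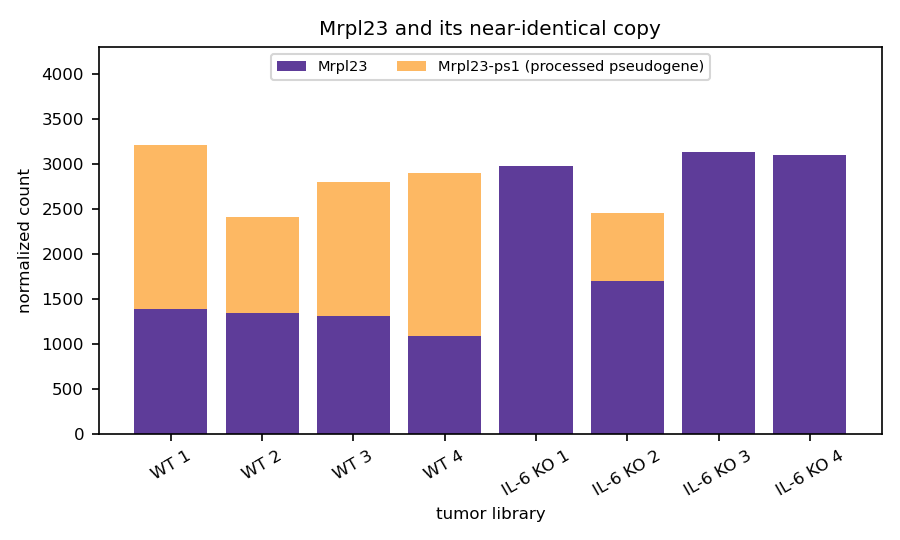
Normalized count (y axis) of Mrpl23 (purple) and Mrpl23-ps1 (orange), stacked, in each of the 8 tumor libraries (x axis). The whole bars reach 2405 to 3215 in WT and 2456 to 3136 in IL-6 KO libraries and so overlap, while the division between gene and copy differs.

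A copy was also lower in IL-6 KO tumor for Mrps33, a small subunit gene whose pseudogene Gm5776 matches it at 99.7% over 321 bases. Mrps33 had 1226, 1131, 1156 and 964 in WT and 1423, 1157, 1484 and 1443 in IL-6 KO tumor, and its log2 fold change of 0.30 did not pass the threshold (adjusted p = 0.079). Gm5776 had 72.3, 112, 135 and 134 in WT tumor and again 0 in IL-6 KO libraries 1, 3 and 4, with 44.8 in library 2. The sum of both was 1233 ± 93.2 in WT and 1388 ± 126 in IL-6 KO tumor (SD, n = 4), a log2 difference of 0.17 (exact permutation test, two-sided, p = 0.11), so that, unlike for Mrpl23, most of the gain in Mrps33 was not matched by the loss in its copy. Mrps33 was called once the GC and length trends were removed, at 0.63 (adjusted p = 0.0079). Of the 78 genes, 15 have such a copy elsewhere on the same strand (at least 97% identity over 150 bases), and for 4 of them a copy was listed in tumor. Exons shared with a gene on the other strand were found in 28 genes and on the same strand in 8, while 36 genes had none of these. Gm5776 and Mrps33 were also chosen after their values were seen.

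Among 9 genes listed for a role of their own, 4 were called, where 19.8% of all genes tested were. Mrpl12 and Mrps30 were called as higher and Mrps12 and Mrps18c as lower, all given above. The other 5, among them Mrps18a and Mrps18b, did not pass the threshold. Mrpl45, which anchors the ribosome to the inner membrane, had 1120, 1510, 1239 and 1191 in WT and 1268, 1432, 1349 and 1257 in IL-6 KO tumor, and the IL-6 KO values lay within the WT range (log2 fold change 0.075 ± 0.10 SE). Mrpl58, a peptidyl-tRNA hydrolase that rescues stalled ribosomes, had a log2 fold change of 0.074 ± 0.091 (SE). Mrps36 had 511, 557, 519 and 514 in WT and 491, 506, 458 and 469 in IL-6 KO tumor, where every IL-6 KO library lay below WT but the fold change of -0.13 ± 0.087 (SE, adjusted p = 0.33) did not pass the threshold. With the GC and length trends removed the fold change of Mrps36 was 0.32 (adjusted p = 0.031), the opposite sign.

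By region, 2 of the 5 stalk genes, 2 of the 7 of the central protuberance and 2 of the 8 around the exit tunnel were higher (10.6% of all genes tested were), and 1 of the exit tunnel genes was lower. The higher exit tunnel genes were Mrpl23, whose sum with its copy did not differ detectably, and Mrpl17, whose call was lost whichever library was left out, and of the stalk genes Mrpl53 overlapped between the genotypes once summed with Gm42688. The median log2 fold change was 0.28 in the stalk, 0.0042 in the central protuberance and 0.13 around the exit tunnel. It was 0.075 over the 51 genes of the large subunit, of which 13 were higher and 3 lower, and -0.0044 over the 26 of the small subunit. Genes with a bacterial counterpart (46, of which 11 higher and 4 lower) had a median of 0.017 and those without (31, of which 5 higher and 1 lower) a median of 0.16. These are counts of small groups, and no difference between them was tested.

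A further 5 proteins of the ribosome carry another name. Gadd45gip1, a large subunit protein also known as CRIF1, had 2133, 1836, 1832 and 2010 in WT and 2581, 2607, 2427 and 2620 in IL-6 KO tumor (log2 fold change 0.39 ± 0.074 SE, adjusted p = 0.0075). Aurkaip1 was higher by 0.37 (adjusted p = 0.035), and Ptcd3 fell by 0.37 on the log2 scale (adjusted p = 0.013), from 1990, 2299, 2114 and 1958 to 1648, 1705, 1641 and 1489. Chchd1 (-0.46, adjusted p = 0.087) and Dap3 (0.095, adjusted p = 0.64), a GTP-binding protein of the small subunit, did not pass the threshold. Like the genes chosen by name, these 5 went in both directions.

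The other genes around the ribosome were taken from lists of assembly factors, translation factors, aminoacyl-tRNA synthetases, transcription factors of mitochondrial DNA and the transcripts of mitochondrial DNA itself. Values of the nuclear genes are given before removal of the GC and length trends, and fewer of the related genes were called after it. Of the 28 assembly factors tested, 3 were higher and 2 lower, where 10.6% of all genes tested were higher and 9.16% lower. Mtg1, a GTPase of large subunit assembly, had 371, 267, 350 and 319 in WT and 637, 576, 697 and 742 in IL-6 KO tumor (log2 fold change 1.02 ± 0.13 SE, adjusted p = 0.0018). C1qbp fell by 0.34 (adjusted p = 0.017) and Eral1, which binds the RNA of the small subunit, rose by 0.36 (adjusted p = 0.035).

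Of 18 translation factors and mRNA binding proteins, 2 were higher and 3 lower. The elongation factors Tsfm (0.75 ± 0.11 SE, adjusted p = 0.0034) and Tufm (0.43 ± 0.074 SE, adjusted p = 0.0055) rose, whereas Slirp, which stabilizes mitochondrial mRNAs, fell by 0.89 (adjusted p = 0.0087). Slirp had 620, 1056, 831 and 734 in WT and 363, 385, 500.2 and 487 in IL-6 KO tumor. Of 19 mitochondrial aminoacyl-tRNA synthetases, 5 rose (10.6% of all genes tested did) and 0 fell, led by Sars2 (0.55, adjusted p = 0.0072), Aars2 (0.52, adjusted p = 0.019) and Vars2 (0.55, adjusted p = 0.024). Of the 19 fold changes 18 were above 0, as were 7149 of the 14493 over all genes tested. Among those 18 is Lars2, which did not pass the threshold and had 665441 in IL-6 KO tumor library 2 against 9074 to 32685 in the other 7 libraries. Among 10 genes of mitochondrial transcription and nucleoids 3 rose and 3 fell, with the protease Lonp1 at 0.54 (adjusted p = 0.0021), the transcription factor Tfam at -0.38 (adjusted p = 0.011) and the helicase Twnk at 0.31 (adjusted p = 0.012).

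The transcripts that the mitochondrial ribosome translates were lower in IL-6 KO tumor, by an amount that depended on the processing. All 13 protein-coding genes of mitochondrial DNA passed the threshold as lower, with a median log2 fold change of -1.40 and a range of -2.30 (mt-Nd3) to -0.85 (mt-Nd4). mt-Nd2, a subunit of complex I, had 11871, 16404, 13116 and 13458 in WT and 4713, 3804, 4518 and 3978 in IL-6 KO tumor (log2 fold change -1.68 ± 0.11 SE, adjusted p = 3.9e-05). mt-Co3, a subunit of cytochrome c oxidase, had 34852, 45220, 37848 and 37304 in WT and 13273, 14498, 16174 and 14738 in IL-6 KO tumor (-1.40 ± 0.090 SE, adjusted p = 3.9e-05). The groups stood well apart in both. mt-Rnr2, the large ribosomal RNA, fell by 1.20 (adjusted p = 9.6e-04), from 137644, 201674, 166224 and 152754 to 66124, 84842, 74301 and 59946, and mt-Rnr1 did not pass the threshold (-0.63, adjusted p = 0.45). mt-Rnr1 had 12239, 15385, 13075 and 13578 in WT and 6305, 37084, 5121 and 4887 in IL-6 KO tumor, where library 2 alone lay above WT, and without that library its log2 fold change was -1.32 (adjusted p = 2.5e-04). These transcripts are short and poor in GC (31.9 to 41.1%, against a median of 49.7% over all genes tested). With the GC and length trends removed, 7 of the 13 were called as lower, the median was -0.40, mt-Nd2 stood at -0.77 (adjusted p = 0.0014), mt-Co3 at -0.48 (adjusted p = 0.0049) and mt-Rnr2 at -0.56 (adjusted p = 0.021), while mt-Rnr1 stood at 0.34 (adjusted p = 0.72), and mt-Nd6 and mt-Atp8 stood at 0.0065 and 0.0068. Ribosomal RNA was depleted from these libraries, and the part of that step in the levels of the 2 ribosomal RNAs was not tested.

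The nuclear genes for the ribosome's proteins had a median near 0 in the same libraries in which the protein-coding genes of mitochondrial DNA had a median of -1.40, or -0.40 with the trends removed. Neutrophil markers moved with the genotype too. Of 11 such genes 9 were higher in IL-6 KO tumor, with summed normalized counts of 4616 to 5258 in WT and 7185 to 17881 in IL-6 KO libraries, and 3 of 7 monocyte and macrophage markers were higher. Their part in the values of the ribosomal protein genes was not tested. In bulk libraries, fewer cells of a type and less RNA per cell cannot be told apart.

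**Figure D4:**
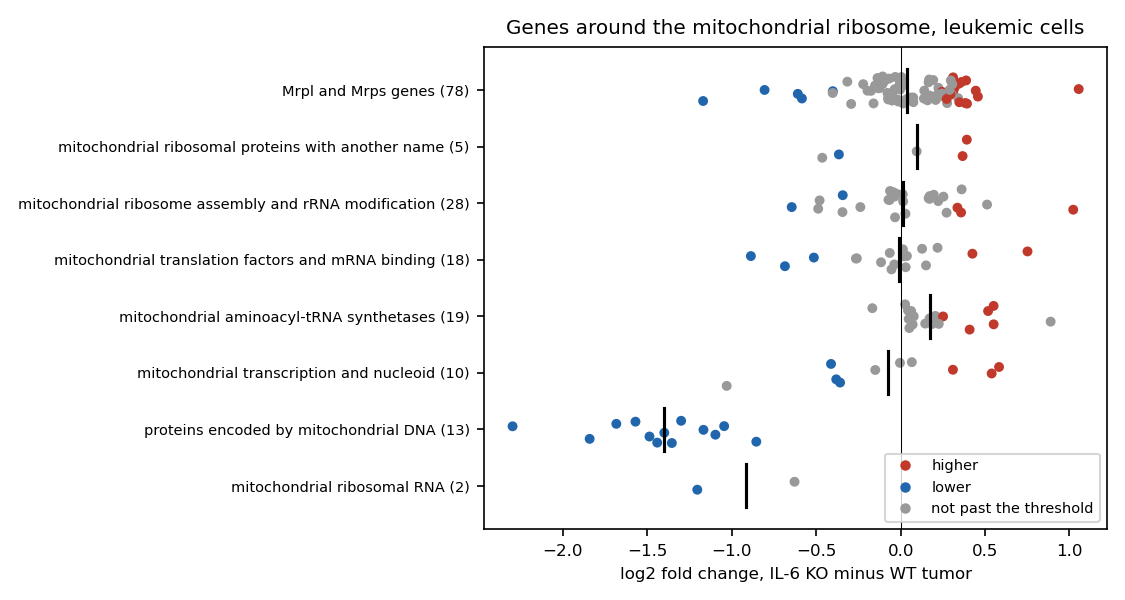
Log2 fold changes (IL-6 KO minus WT tumor, x axis) of the 78 genes and of 7 lists of related genes (y axis, number tested in brackets), with 1 point per gene, red for higher, blue for lower and grey for no call. Black bars are medians, which lie near 0 for the 78 genes (0.036) and at -1.40 for the 13 protein-coding genes of mitochondrial DNA.

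In stroma, 0 of the 69 genes that passed the filter differed between the genotypes by limma at an adjusted p under 0.05. The filter left out Mrpl22, Mrpl39, Mrpl42, Mrpl55, Mrps16, Mrps2, Mrps27 and Mrps6, whose means in WT stroma ran from 5.26 to 13.95. Among all 12202 genes tested 1 was called (0.0082%). At an unadjusted p under 0.05, 4 of the 69 genes passed (5.80%, against 9.15% of all genes), and the median log2 fold change was -0.13 (all genes -0.013), with 31 values above 0. The median SE of these genes was 0.83 on the log2 scale, against 0.10 in tumor.

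The smallest p in stroma was that of Mrpl17, with 1.75, 15.9, 11.9 and 28.2 in WT and 125, 50.4, 111 and 31.5 in IL-6 KO stroma. These did not overlap, and the log2 fold change was 2.60 ± 0.84 (SE, adjusted p = 0.43). Mrpl18, whose bacterial counterpart binds 5S rRNA, had 253, 15.2, 22.5 and 35.7 in WT and 83.7, 272, 504 and 114 in IL-6 KO stroma (2.14 ± 0.83 SE, adjusted p = 0.47), where WT library 1 lay among the IL-6 KO values. Mrpl2 (2.16), Mrpl21 (2.24), Mrps23 (1.26) and Mrps24 (1.17) followed, each with overlapping libraries.

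In the other direction, Mrps25, a small subunit protein, had 36.3, 41.6, 53.6 and 27.9 in WT and 20.8, 5.16, 1.54 and 6.99 in IL-6 KO stroma, without overlap (log2 fold change -2.46 ± 0.85 SE, adjusted p = 0.43). Mrpl4 (-1.87), Mrps36 (-1.51), Mrps30 (-1.17), Mrpl45 (-1.16) and Mrpl24 (-0.86) followed, with overlap in each. Of the 69 genes 2 had libraries that did not overlap (2.90%, against 5.79% of all genes tested). Of the 21 genes called in tumor, 20 were tested in stroma, where their log2 fold changes ran from -1.87 (Mrpl4) to 2.60 (Mrpl17). Mrpl33, which fell in tumor, had 84.5, 57.3, 148 and 122 in WT and 229, 144, 99.98 and 192 in IL-6 KO stroma. The difference between the populations was not tested, because their tables were normalized separately. No gene of the 7 related lists was called in stroma either. The 13 protein-coding genes of mitochondrial DNA all had negative fold changes there (median -1.72). Of these, 8 had an unadjusted p under 0.05 by limma, as did 9.15% of all genes tested in stroma. These values are given before removal of the GC and length trends.

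The level of these genes was compared between the populations only within each library, as the log2 value minus the median of the 11812 genes that both tables list. Of the 77 genes in both tables, the median gene lay 0.41 to 0.55 above that median in the WT tumor libraries and 1.42 to 1.68 below it in the WT stroma libraries. In IL-6 KO mice these distances were 0.37 to 0.51 above in tumor and 1.52 to 1.83 below in stroma. All 77 genes stood relatively higher in WT tumor than in WT stroma, by a median of 2.13 on the log2 scale. For 71 of the 77 genes every WT tumor library exceeded every WT stroma library, which held for 27.3% of all genes listed in both tables, and in IL-6 KO mice for 62 of 77 (25.9% of all). As the tables were scaled apart, this describes standing within a library and was not tested.

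The distance was widest for Mrpl58 (5.11), Mrps2 (5.10) and Mrpl23 (5.09), which were at 0 in 1, 2 and 2 of the WT stroma libraries, so that the pseudocount of 1 helps to set these values. For Mrpl23 the copy Mrpl23-ps1 had 16.0, 9.70, 30.8 and 0 in WT stroma, where Mrpl23 had 0, 20.3, 0 and 5.90. The distance was narrowest for Mrpl24 (0.20), Mrps31 (0.50) and Mrpl33 (0.75) in WT mice, genes chosen after their values were seen. Mrpl24 had 158, 126, 132 and 174 in WT stroma, among the highest values of these genes there. In IL-6 KO mice Mrpl33 was the exception, standing 0.75 lower in tumor than in stroma. Its mean level minus the library median was 0.92 in WT and 0.098 in IL-6 KO tumor. In stroma, where Mrpl33 was not called, this level was 0.17 in WT and 0.85 in IL-6 KO mice.

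**Figure D5:**
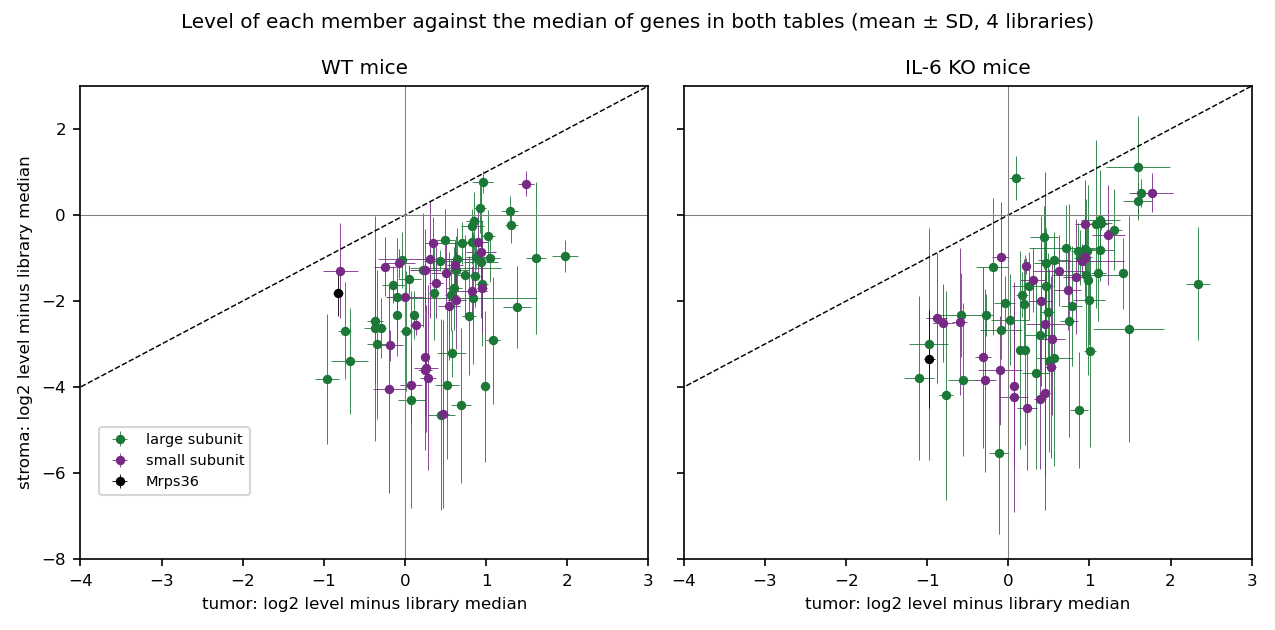
Level of each of the 77 genes listed for both populations in tumor (x axis) and stroma (y axis), as log2 normalized count minus the library's median over genes in both tables, for WT (left) and IL-6 KO mice (right). Points are means and bars SDs of 4 libraries, and the dashed line marks equal standing. All 77 points lie below the line in WT mice and 76 in IL-6 KO mice, where the exception is Mrpl33.

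Per kilobase of transcript, the genes spanned a 39.7-fold range in WT tumor, from 147 to 5856 normalized counts per kb with a median of 879. Mrpl52 was highest with 5856 ± 726 per kb (SD, n = 4), above Mrpl33 with 3707 ± 170 and Mrps21 with 3684 ± 484, which did not differ beyond their spread. Mrpl34 (2836 ± 248) and Mrpl12 (2795 ± 322) came next and were likewise within their spread. The lowest were Mrps25 (147 ± 18.9), Mrpl32 (185 ± 10.1), Mrpl1 (203 ± 14.1), Mrpl47 (219 ± 18.8) and Mrpl35 (235 ± 23.6). Most of these proteins occur once in a ribosome. The order ran against the length of the annotated transcript (rank correlation -0.81 over 78 genes), which ran from 418 to 7300 bases. Each value is a count divided by this length, so that correlation is partly built in, and the order depends on the transcript chosen. With the same lengths, the order was much the same in IL-6 KO tumor (rank correlation 0.95), where Mrpl52 had 4542 per kb.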

How the data were processed

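RNA of sorted tumor and stroma cells was sequenced as 75-nt single-end reads from rRNA-depleted, strand-specific libraries, 4 per genotype and population. The authors quantified reads with salmon 1.3.0 against mm10 correcting for GC and sequence bias, and normalized the estimated counts with DESeq2 1.28.1. They deposited 1 table of normalized counts (a signal scaled by size factors) for tumor and 1 for stroma, scaled separately, and 2 tables of their own fold changes and p-values, which were not used. The paper gives an approximate depth per sample. Whole reads could not be recovered from the values, so the exact depth of each library is unknown.

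From the normalized counts, log2(value + 1) was tested with limma 3.58.1 in R 4.3.3 (empirical Bayes with a mean-variance trend, two-sided, Benjamini-Hochberg over all genes of a table, threshold 0.05), on genes with a mean over 10, IL-6 KO against WT within each table. Fold changes are on this scale and understate changes of low genes. As alternatives, loess trends of each library's deviations from the gene means on GC content and length were removed, and the pseudocount, filter, scaling, weights, replicate block and single libraries were varied. The 78 genes, their roles and the related lists were chosen with earlier results of these data known. Named genes were all those called in tumor, the 6 per direction with the smallest p in stroma, the 5 highest and lowest per kb in WT tumor, genes with a role of their own, 3 genes per related list with the smallest p in tumor and the 5 ribosomal proteins with another name. IDs were matched without their version to GENCODE vM21 (GRCm38), 15069 of 15080 in tumor and 13338 of 13344 in stroma, and lengths are those of the longest principal transcript. Copies were found with BLAST 2.17.0 (97% identity over 150 bases) in the annotated transcripts. Promoter windows were taken from RefSeq, and matches to each motif were counted by code on both strands. In simulated data with 200 changed genes, the test recovered 139 at a log2 fold change of 1 and 163 at 2 in tumor (14493 genes, 7 false calls in each), and 0 and 33 in stroma (12202 genes, 1 and 3 false calls).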

Additional observations from a re-analysis of the deposited data

Results flagged for a closer look

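In 80 groups of 4 libraries looked at, 7 had 1 library farther from the rest than Dixon's 95% critical value allows, where chance gives about 1 in 20 such groups. Of these, 4 were in IL-6 KO tumor library 2: Mrpl23 at 1694 (2978 to 3136 in the others), Mrps18a at 1024 (1305 to 1339), Mrpl9 at 2402 (2553 to 2572) and Mrpl2 at 2345 (1858 to 1924). Mrpl47 was low in IL-6 KO tumor library 1, at 506 against 567 to 579. In stroma, Mrpl4 was at 0 in IL-6 KO library 1 (15.0 to 26.2 in the others), and the median log2 value of all the genes was 5.02 in WT library 2 against 4.81 to 4.83.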

How the results depend on the processing

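The called genes of tumor (21 of 78, where 19.8% of all genes tested were called) numbered 13 with the GC and length trends removed, 14 with the replicate number as a block and 10 with both together (an alternative chosen after seeing the data). They numbered 8 to 24 as single libraries were left out, while calls over all genes tested ran from 1572 to 3328 (2870 with all libraries). Related genes called (38 of 95 tested, the 38 including the 13 protein-coding genes of mitochondrial DNA) numbered 24, 34, 20 and 26 to 41 in the same order. The median log2 fold change of the 78 genes was 0.11 with the trends removed, with or without the block, against 0.036, and 0.037 to 0.081 as single libraries were left out. The 13 protein-coding genes of mitochondrial DNA, all called as lower in tumor, numbered 7 with the trends removed and 5 with the block as well. In stroma 0 of these genes and of the related genes were called under every alternative, and the median of -0.13 moved to 0.014 with array weights and to between -0.25 and 0.0094 as single libraries were left out. Of uncalled genes, Mrps18a turned to -0.14 and Mrps36 to 0.32 with the trends removed, with or without the block, and Mrps18b ranged from -0.13 to 0.012 as single libraries were left out. Mrpl23 summed with its copy gave 0.045. In their deviations from the genotype means, no same-numbered tumor pair correlated over 0.1, with -0.0014 for number 2, and same-numbered stroma pairs ranged from -0.029 to 0.13. Differently numbered pairs reached 0.066 in tumor and 0.14 in stroma, so these values do not decide whether replicate numbers pair the libraries. The cause of these shifts was not tested. In stroma, where values were low and the spread between libraries large, the simulation recovered few changed genes.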
